A study of Mus musculus with 12 samples.

Results

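Germ cells of the fetal ovary and the fetal testis were compared in control mouse embryos at E13.5, the embryonic day of the labels. The comparison covered the 15323 autosomal genes that passed a filter on low counts, of 16708 genes that passed on any chromosome and 37991 gene rows in all. It set 3 female control (Ctrl) embryos against 4 male Ctrl embryos, all labelled as C57BL/6 background and all carrying the Ctrl genotype of a study of conditional Ezh2 knockout (CKO). The sample descriptions write these embryos as WT, and neither the Cre driver of the knockout nor the alleles of the Ctrl embryos is given in the sources used here. Each library came from the sorted primordial germ cells of 1 embryo, and which embryos shared a litter is not stated. The other 5 libraries, from 2 female and 3 male CKO embryos, entered the same fit and serve below as a second female to male comparison with other embryos.

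Primordial germ cells are the embryonic precursors of eggs and sperm. In the ovary they are known to leave the mitotic cycle and enter the prophase of meiosis before birth, a step that needs the retinoic acid responsive gene Stra8 and that is promoted by BMP signals from the ovarian soma. In the testis they do not enter meiosis in the fetus: they are known to pass through a phase of Nodal signalling, to start the Nanos2 programme and to stop dividing in G1.

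The counted reads per Ctrl library ranged from 26180685 to 35299206. The germ cell markers summed to between 5630 and 6400 CPM (counts scaled to a common total in each library) in the 7 libraries, and 4 Y-linked genes had 0, 0 and 2 reads in the female libraries and 6013 to 10298 reads in the male libraries. Markers of Sertoli cells, the supporting cells of the testis, summed to 13.4 to 16.7 CPM in the female and 22.6 to 68.3 CPM in the male embryos, highest in male embryo 1. Most of the female sum was Aard, at 10.6 to 13.6 CPM in females and 7.87 to 19.9 CPM in males, which did not pass the test. Of the 15 Sertoli markers tested, 10 were higher in the male libraries. Only 1, Cyp26b1, was higher in the female libraries, at 0.469 to 1.3 CPM against 0.265 to 0.496 CPM in males. Amh and Cst9 were at 0 in all 3 female libraries, at least 83.7-fold and 145-fold lower than in the males. Markers of fetal Leydig cells summed to 2.81 to 3.44 CPM in female and 7.42 to 13.8 CPM in male embryos. Of 4 tested, only Gramd1b was called, at 4.66 to 9.99 CPM in males and 1.17 to 1.28 CPM in females. In male embryo 1, Cyp17a1, Cyp11a1 and Hsd3b1 were at 2.04, 1.93 and 1.02 CPM. In the other males they were at 0, 0 to 0.265 and 0 to 0.232 CPM. Cyp17a1 was not tested, and the other 2 were not called. The other Leydig markers were not highest in male embryo 1. Star was at 1.99 CPM there and 2.35 CPM in male embryo 4. Gramd1b was at 6.66 CPM against 9.9 and 9.99 CPM in male embryos 2 and 3. Insl3 was at 0.0292 CPM, the lowest of the males, and at 0.123 to 0.375 CPM in females. Markers of pregranulosa cells summed to 20.5 to 33.9 CPM in female and 17.7 to 36.1 CPM in male embryos. Of the 12 pregranulosa markers tested, 4 were higher in female embryos (Foxl2, Wnt4, Irx3 and Bmp2) and 5 higher in male embryos: Irx3 was at 7.01 to 12.9 CPM in females and 0.0292 to 1.2 CPM in males, and the defining marker Foxl2 at 0.103 to 1.11 CPM in females and 0 to 0.146 CPM in males, a call lost without male embryo 3 (adjusted p = 0.0666) or male embryo 4. Bmp2 and Wnt4 are also in the BMP and Wnt lists below. The sums of marker lists for endothelium (256 to 320 and 178 to 363 CPM), gonadal stroma (7.76 to 21.2 and 8.37 to 19.1 CPM), macrophages (4.15 to 13.3 and 3.03 to 4.18 CPM) and red blood cells (0.154 to 2.28 and 0.0993 to 1.72 CPM) overlapped between the sexes. Most of the endothelial sum was Pecam1, at 238 to 299 CPM in females and 158 to 324 CPM in males. Of the 9 endothelial markers tested, 3 were higher in male and 0 in female embryos. Of the 12 stromal markers tested, 1, Wnt5a, was higher in female and 0 in male embryos. Of the 10 macrophage markers tested, 1, Fcgr3, was higher in female and 0 in male embryos. Mesonephric markers summed to 29.1 to 41.5 CPM in female and 101 to 118 CPM in male embryos. Lhx1 gave 8.38, 9.57 and 22.1 CPM of this in the females, where Wfdc2 gave 17.8 to 19.6 CPM, and 93.4 to 113 CPM in the males; Lhx1 is also in the list of male germ cell genes used below. Coelomic epithelial markers summed to 1.58 to 2.97 and 4.08 to 8.44 CPM. The part of these other cells in the sex differences below was not tested. These are bulk libraries, in which fewer cells of a type and less RNA per cell cannot be told apart.

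Female and male germ cells differed over much of the autosomal transcriptome, and the counts of every list below are read against these shares. In edgeR's quasi-likelihood test with Benjamini-Hochberg adjustment, 6193 autosomal genes, 40.4%, had an adjusted p under 0.05: 3066 (20.0%) were higher in female and 3127 (20.4%) higher in male embryos. The female-higher genes differed by more: 829 of them changed at least 4-fold against 498 of the male-higher genes, and the median size of the log2 difference was 1.13 against 0.755. The female and male libraries did not overlap for 6807 genes (44.4%). Among genes above 5 CPM in one sex and under 1 CPM in the other, 65 were higher in female and 42 in male embryos. The share called on each autosome lay between 34.9% on chromosome 16 and 46.3% on chromosome 19. Scaling by library size alone moved the split to 3724 higher in female and 2496 higher in male and shifted the median log2 difference of all autosomal genes from -0.008 to 0.094, so list medians of that size or less depend on the scaling.

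**Figure D1:**
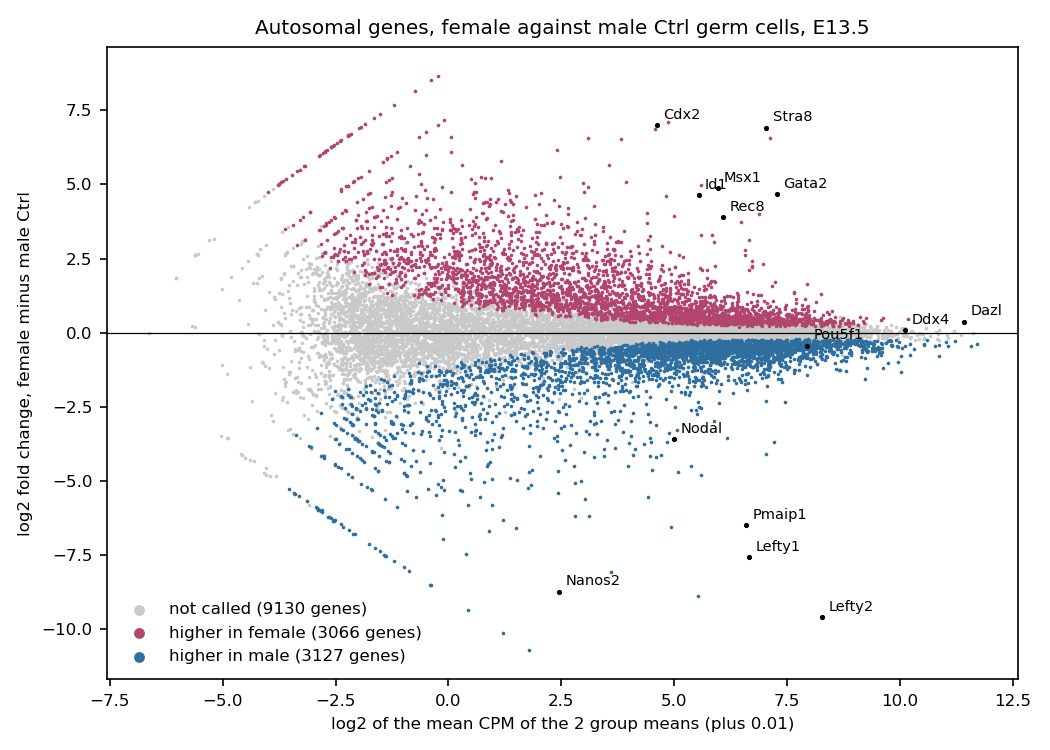
Each point is 1 autosomal gene, with its mean level over both groups on the x axis (log2 CPM) and its log2 fold change, female minus male Ctrl, on the y axis; colours mark the 3066 genes called higher in female and the 3127 called higher in male. Stra8, Cdx2 and the BMP response genes Id1, Msx1 and Gata2 stand high among well measured genes, and Lefty2, Lefty1 and Nodal stand low.

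The genes that start meiosis were higher in female germ cells. Stra8, the retinoic acid responsive gatekeeper of meiosis, stood at 296, 276 and 212 CPM in the 3 female embryos and at 1.81, 1.07, 2.22 and 3.56 CPM in the 4 male embryos. Every female embryo was far above every male embryo, with a log2 difference of 6.91 (SE 0.39, adjusted p = 2.01e-07). Its partner Meiosin, listed as Gm4969 in the annotation used here, was at 23.5, 32.3 and 16.8 CPM against 3.57 to 4.64 CPM in the males (log2 difference 2.57, SE 0.33). Of the 18 regulators of meiotic initiation tested, 12 were higher in female and 3 higher in male embryos, with a median log2 difference of 0.757 against -0.00788 over all autosomal genes. Zglp1, a transcription factor known to act downstream of BMP signals in oogenic fate, was at 49.6, 55.9 and 84.9 CPM in females and 13.8 to 16.7 CPM in males. Meioc, which holds germ cells in meiotic prophase, was at 226, 254 and 188 CPM against 6.72 to 15.4 CPM in male embryos 1 to 3 and 19 CPM in male embryo 4.

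The 3 members of that list that were higher in males were E2f6 (log2 difference -0.48) and L3mbtl2 (-0.62), both known as parts of a variant Polycomb complex that represses meiotic genes, and the zinc finger gene Bnc1 (-1.42). The RNA-binding protein Dazl, which licenses germ cells for sexual differentiation, was abundant in both sexes: 3112, 2992 and 3165 CPM in females and 2258 to 2476 CPM in males. The groups did not overlap, but the log2 difference was only 0.37 (SE 0.08, adjusted p = 0.00153).

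Of the proteins that shape meiotic chromosomes, most but not all differed. In the list of meiotic cohesin, chromosome axis and synaptonemal complex genes, 16 of 20 were higher in female and 1, Trip13, higher in male embryos; the list median was 0.69. Without female embryo 2 the count fell to 10 of 20. Rec8, the meiosis-specific cohesin subunit that Stra8 is also known to act on, stood at 150, 118 and 114 CPM in females and at 16.7, 3.05, 4.67 and 9.58 CPM in males (log2 difference 3.89, SE 0.43, adjusted p = 3.24e-05). Several other members were well measured in male germ cells too. Smc1b, another meiotic cohesin, was at 436, 464 and 402 CPM in females but still at 145 to 227 CPM in males. Hormad1, an axis protein, was at 244, 286 and 257 CPM against 119 to 186 CPM. The axis protein Sycp3 was at 70.1, 87.0 and 65.5 CPM against 23.8 to 29.3 CPM. Tex12, of the central element of the synaptonemal complex, was at 61.1, 71.9 and 55.7 CPM against 26.7 to 48.8 CPM (log2 difference 0.73, SE 0.23, adjusted p = 0.0243), a call lost without female embryo 1 or without female embryo 2 (0.101). For Smc1b, Hormad1 and Sycp3 the groups did not overlap, and the log2 differences of 1.32, 0.81 and 1.44 were far smaller than that of Stra8.

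The promoters of Sycp3, Hormad1 and Tex12 are shown because their list held a high share of a motif searched here, the E-box CACGTG. These are the letters bound by several helix-loop-helix factors. Each of these genes holds the motif, which was present in only 9 of 22 windows of the list. The windows run from 250 bases before to 50 bases after the transcript start, 5′ to 3′ on the gene's strand, from RefSeq on GRCm38.p6; capitals mark the letters CACGTG (E-box), GGCGGGA (E2F) and CNCCTCAG (reported for STRA8), on either strand, and TGACGTCA (CRE) had no match in them. Sycp3 lies at chr10:88459337-88459636 (+) and Hormad1, of which the window of the more upstream start is shown, at chr3:95559427-95559726 (+). Tex12 lies at chr9:50561219-50561518 (-). Stra8, at chr6:34920698-34920997 (+), is printed as the gene with the largest difference of the list of initiators.
Sycp3: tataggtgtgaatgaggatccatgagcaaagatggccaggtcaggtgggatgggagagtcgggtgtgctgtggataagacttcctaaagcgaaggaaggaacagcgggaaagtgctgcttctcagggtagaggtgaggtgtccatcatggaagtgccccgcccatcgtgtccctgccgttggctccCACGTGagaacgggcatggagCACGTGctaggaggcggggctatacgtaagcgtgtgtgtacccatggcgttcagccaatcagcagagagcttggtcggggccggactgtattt
Hormad1: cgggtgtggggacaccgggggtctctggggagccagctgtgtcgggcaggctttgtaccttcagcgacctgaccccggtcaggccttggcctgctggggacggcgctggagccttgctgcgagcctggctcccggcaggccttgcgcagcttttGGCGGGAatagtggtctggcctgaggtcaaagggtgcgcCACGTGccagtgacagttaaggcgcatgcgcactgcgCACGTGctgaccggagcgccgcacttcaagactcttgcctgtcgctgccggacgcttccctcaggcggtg
Tex12: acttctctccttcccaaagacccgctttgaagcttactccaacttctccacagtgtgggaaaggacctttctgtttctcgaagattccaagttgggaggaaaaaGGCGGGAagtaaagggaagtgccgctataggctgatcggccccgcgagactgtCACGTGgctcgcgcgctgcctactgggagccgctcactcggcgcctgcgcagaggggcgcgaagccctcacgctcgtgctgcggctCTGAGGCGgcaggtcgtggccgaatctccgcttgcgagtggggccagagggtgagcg
Stra8: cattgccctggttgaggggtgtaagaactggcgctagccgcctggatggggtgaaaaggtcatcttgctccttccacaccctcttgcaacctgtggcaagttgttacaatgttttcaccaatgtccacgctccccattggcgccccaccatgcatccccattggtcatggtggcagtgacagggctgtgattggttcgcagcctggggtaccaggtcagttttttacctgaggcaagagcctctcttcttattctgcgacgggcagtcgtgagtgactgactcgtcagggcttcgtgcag
Counting bases from 1 at the start of the window, the Sycp3 window held CACGTG at bases 187 to 192 and 208 to 213. The Hormad1 window held GGCGGGA at bases 155 to 161 and CACGTG at bases 194 to 199 and 231 to 236. The Tex12 window held GGCGGGA at bases 105 to 111, CACGTG at bases 158 to 163 and CNCCTCAG, as its reverse complement, from base 244 on. None of these matched stretches overlapped another, and the Stra8 window held none of the 4 motifs. Searched on both strands, CACGTG was present in 9 of 22 windows (40.9%) of the cohesin and synaptonemal complex list and in 16 of 32 windows of the list of germline genes known to be silenced by promoter DNA methylation, against 9.54% of all 14459 windows of the autosomal genes tested. The 2 lists share genes. Over the whole comparison the share was 8.58% of windows of female-higher and 12.1% of windows of male-higher genes. CNCCTCAG was present in 5 of 22 windows (22.7%) of the cohesin and synaptonemal complex list against 9.04% of all windows, and in 10.4% of windows of female-higher and 7.58% of male-higher genes. GGCGGGA was present in 11 of 24 windows (45.8%) of the recombination list against 19.7% of all windows.

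The recombination machinery leaned to the female side. Of 33 genes for meiotic recombination and telomere attachment, 17 were higher in female embryos, 1 was higher in male embryos and 15 did not pass the test (median 0.685). Meiob, a single-strand binding protein of meiotic repair, stood at 11.4, 14.1 and 9.26 CPM in females and 0.526 to 1.51 CPM in males (log2 difference 3.55, SE 0.36). Dmc1, the meiotic strand exchange protein, was at 58.8, 60.7 and 48.4 CPM against 12.6 to 21.2 CPM (1.64, SE 0.21). Spo11, which makes the breaks that start recombination, did not pass: it was at 21.1, 26.2 and 17.3 CPM in females and at 38.6, 17.9, 30.8 and 21.4 CPM in males, overlapping ranges, with a log2 difference of -0.34 (SE 0.27, adjusted p = 0.348).

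Oocyte genes did not form a female-higher group. Of 19 tested, 6 were higher in female and 5 higher in male embryos, and the list median of -0.389 turned to 0.047 without male embryo 1. Figla, a transcription factor of the primordial follicle, was low in both sexes, at 2.06, 2.78 and 1.68 CPM in females and 0.0662 to 0.341 CPM in males. Several genes known from the maternal complex of the oocyte were higher in the male embryos instead. Khdc3, which was not in the list, stood at 2.27, 2.81 and 2.40 CPM in females and at 71.9, 42.0, 49.96 and 98.2 CPM in males (log2 difference -4.71, SE 0.34, adjusted p = 5.77e-07). Ooep, its partner in the same complex, was at 8.85, 12.3 and 19.6 CPM against 25.7 to 44.6 CPM in the males, and Nlrp5 was at 0.123 to 0.789 against 1.03 to 7.42 CPM.

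**Figure D2:**
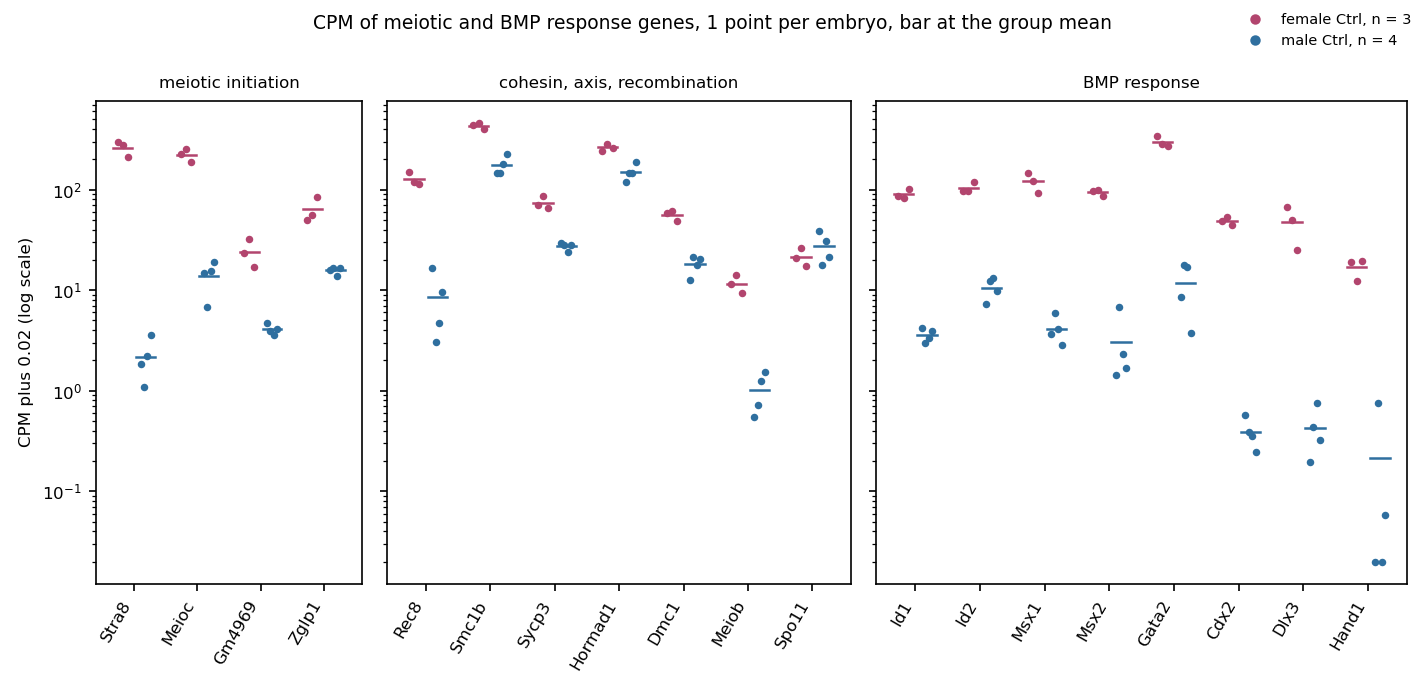
CPM plus 0.02 on a log axis for named genes of meiotic initiation, of meiotic chromosomes and recombination, and of the BMP response; each point is 1 embryo (3 female, 4 male Ctrl) and each bar the group mean. Stra8, Meioc and the BMP response genes separate the sexes by far more than Smc1b, Sycp3 or Hormad1, and Spo11 overlaps.

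The BMP response list, which also holds the ligand Bmp2, gave the highest median of the 27 lists, 1.86. Of its 26 genes, 20 were higher in female and 3 higher in male embryos. The lists were chosen with earlier results of these data known, so this rank is a description only. Id1, a direct BMP target that encodes an inhibitor of helix-loop-helix factors, stood at 85.6, 82.5 and 101 CPM in females and at 4.23, 2.97, 3.31 and 3.90 CPM in males. The difference of 4.63 on the log2 scale (SE 0.15, adjusted p = 3.85e-10) had the smallest adjusted p among the autosomal genes that the rule named. The homeobox gene Msx1 was at 148, 123 and 91.6 CPM against 2.84 to 5.86 CPM. Its relative Msx2 was at 97.1, 98.5 and 86.9 CPM against 1.40 to 6.81 CPM, and both are known to act in meiotic entry downstream of BMP. Gata2 was at 339, 287 and 274 CPM against 3.75 to 17.8 CPM.

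Some of the largest differences in this list were in transcription factors better known from the placenta and the early embryo. Cdx2, a trophoblast and hindgut homeobox gene, stood at 49.0, 52.8 and 44.5 CPM in females and 0.227 to 0.555 CPM in males (log2 difference 6.99, SE 0.38, adjusted p = 5.53e-08). Dlx3 was at 67.3, 49.7 and 24.9 CPM against 0.175 to 0.728 CPM. Hand1 was at 18.9, 12.3 and 19.5 CPM in females, at 0, 0 and 0.0379 CPM in male embryos 1, 3 and 4 and at 0.743 CPM in male embryo 2, without which its log2 difference rose from 6.58 to 10.13. The ligand Bmp4 went the other way, at 1.75 to 2.95 CPM in females and 9.28 to 25.4 CPM in males (log2 difference -2.97), as did Smad1, a transducer of the pathway (-1.16), whereas the transducer Smad9 was at 1.75 to 3.13 CPM in females and 0 to 0.0993 CPM in males.

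Retinoic acid and Wnt genes also leaned to the female side. In the retinoic acid list 13 of 25 were higher in female and 3 higher in male embryos (median 1.09). On leaving out each Ctrl library in turn the female-higher count was 9 to 11, and the 7 Ctrl libraries alone gave 9 of 24. Rarb, a receptor gene that is itself induced by retinoic acid, was at 7.16, 5.54 and 3.46 CPM in females and 0.0584 to 0.416 CPM in males (log2 difference 4.63, SE 0.59, adjusted p = 5.33e-05). The retinoid binding protein gene Crabp2 was higher in females, at 28.4, 19.8 and 13.52 CPM against 2.25 to 4.81 CPM (log2 difference 2.47). Aldh1a1, which makes retinoic acid, was higher in males, at 2.93 to 12.8 against 0.343 to 1.14 CPM. In the Wnt list 13 of 30 were higher in female and 4 higher in male embryos (median 0.758). The feedback inhibitors Notum (40.3, 32.1 and 38.9 CPM against 5.26 to 10.2 CPM), Nkd1 (43.9, 30.4 and 24.8 against 6.85 to 9.56 CPM) and Axin2 (33.3, 27.1 and 26.8 against 5.86 to 9.16 CPM) were all higher in female embryos. The ligand Wnt3 was higher in males, at 69.3, 31.7, 53.6 and 57.8 CPM against 2.86 to 5.08 CPM.

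The Nodal pathway separated the male embryos. Nodal, a ligand of the TGF-beta family, stood at 55.3, 59.7, 59.7 and 61.9 CPM in males and at 3.07, 5.38 and 6.28 CPM in females, a log2 difference of -3.59 (SE 0.27, adjusted p = 7.96e-07). Its co-receptor Tdgf1, also called Cripto, was at 15.7, 31.1, 27.4 and 21.9 CPM in males and at 0, 0.188 and 0.0686 CPM in females. Its feedback inhibitor and target Lefty2 was at 393, 808, 690 and 580 CPM in males against 1.04, 0.375 and 0.961 CPM in females (log2 difference -9.60, SE 0.34, adjusted p = 1.02e-09). The males were above every female for each of these genes. Lefty1, the neighbouring inhibitor, was at 227, 138, 182 and 260 CPM against 2.12, 0.5 and 0.515 CPM, and its log2 difference of -7.57 became -8.62 without female embryo 1. The homeobox gene Otx2 was at 6.35 to 21.7 CPM against 0 to 0.343 CPM. The antagonist Cer1 had no read in any female library and 0.114 to 1.93 CPM in the males, a level at least 23.0-fold higher, and at least 10.7-fold higher without male embryo 1.

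The whole Nodal and activin list was less one-sided than these members: 11 of 25 were higher in male and 5 in female embryos, with a median of -0.282. The intracellular transducers Smad2 (log2 difference 0.19), Smad3 (-0.28) and Smad4 (-0.12) and their partner Foxh1 (0.21) did not pass the test; without male embryo 2, Smad2 and Foxh1 did, with adjusted p of 0.0289 and 0.0325 and higher levels in females. The proprotein convertases Furin and Pcsk6, which cleave the Nodal precursor, were higher in females, by 1.18 and 1.67 on the log2 scale.

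Some genes of the testis germ cell programme, Nanos2 and Egr4 among them, were at very different levels in the 4 male embryos. Others varied less, such as Lhx1 at 93.4 to 113 CPM in males. In the list of male germ cell fate and prospermatogonial genes 19 of 37 were higher in male and 4 in female embryos (median -1.21), and 5 of those 19 were also in the Nodal list. Nanos2, the RNA-binding protein that represses meiosis in the testis, was at 23.8, 0.33, 2.65 and 16.7 CPM in males and had 2 reads in all in the 3 female libraries. The pooled level was 547-fold higher in males, with an exact 95% interval of 151 to 4520 that covers counting error only (edgeR adjusted p = 0.00112), and 307-fold higher without male embryo 1; limma-voom did not call it. Embryos 1 and 4 were high, and embryo 2 was lowest but above every female. Egr4 was at 55.8, 1.07, 5.20 and 19.04 CPM in males and 1.32 to 1.34 CPM in females, so male embryo 2 was below the females. Its adjusted p was 0.0129, and 0.0501 without female embryo 1; its log2 difference of -3.92 became -2.67 without male embryo 1, and limma-voom did not call it. Of 2 genes known from the later prospermatogonium, neither passed the test. Dnmt3l, a cofactor of new DNA methylation, was at 0.0662 CPM or less in 3 of 4 males and at 0.701 CPM in male embryo 1 (adjusted p = 0.384). Piwil4, which loads piRNAs in the fetal testis, was at 5.94 to 11.8 CPM in males and 9.63 to 12.1 CPM in females (adjusted p = 0.14), and passed only without male embryo 1 (adjusted p = 0.00868, higher in females).

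Feedback genes of FGF and MAPK signalling were more often higher in males, and the receptors were split. Of 16 genes tested, 8 were higher in male and 2 in female embryos (median -0.581); the female-higher count was 1 without female embryo 1, female embryo 2 or male embryo 1. Etv5, an ETS factor induced by FGF, was at 595, 718, 716 and 523 CPM in males and 220, 270 and 295 CPM in females (log2 difference -1.28, SE 0.19, adjusted p = 0.000134). The phosphatase gene Dusp4 was at 64.5 to 96.0 CPM against 15.3 to 26.9 CPM, and Dusp6 and Spry1 were higher in males by 1.36 and 0.73 on the log2 scale. Fgfr3, a receptor, was at 114, 96.4 and 104 CPM in females and at 9.12 to 14.8 CPM in males (3.07, SE 0.16), and Fgfr2 at 119 to 145 CPM in males against 47.8 to 70.8 CPM in females.

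Pluripotency genes were more often higher in males: 17 of 32 were higher in male and 2 in female embryos (median -0.489), and 2 of the 17, Tdgf1 and Otx2, are also in the Nodal list. Pou5f1, the central pluripotency factor Oct4, was at 312, 291, 254 and 281 CPM in males and 196, 220 and 214 CPM in females (log2 difference -0.44, SE 0.10, adjusted p = 0.00273). Dppa3 was at 1339, 1099, 1342 and 1458 CPM in males against 564, 682 and 757 CPM. Utf1 was at 536 to 657 CPM against 192 to 265 CPM. Sox2 did not pass, at 79.6 to 96.3 CPM in males and 90.8 to 111 CPM in females (adjusted p = 0.289). Nanog was at 112 to 143 CPM in males and 67.6 to 114 CPM in females (adjusted p = 0.0622), and passed without female embryo 3 or without male embryo 1 (0.0381). The RNA-binding protein Lin28a was higher in females, at 127 to 155 CPM against 64.0 to 80.0 CPM.

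**Figure D3:**
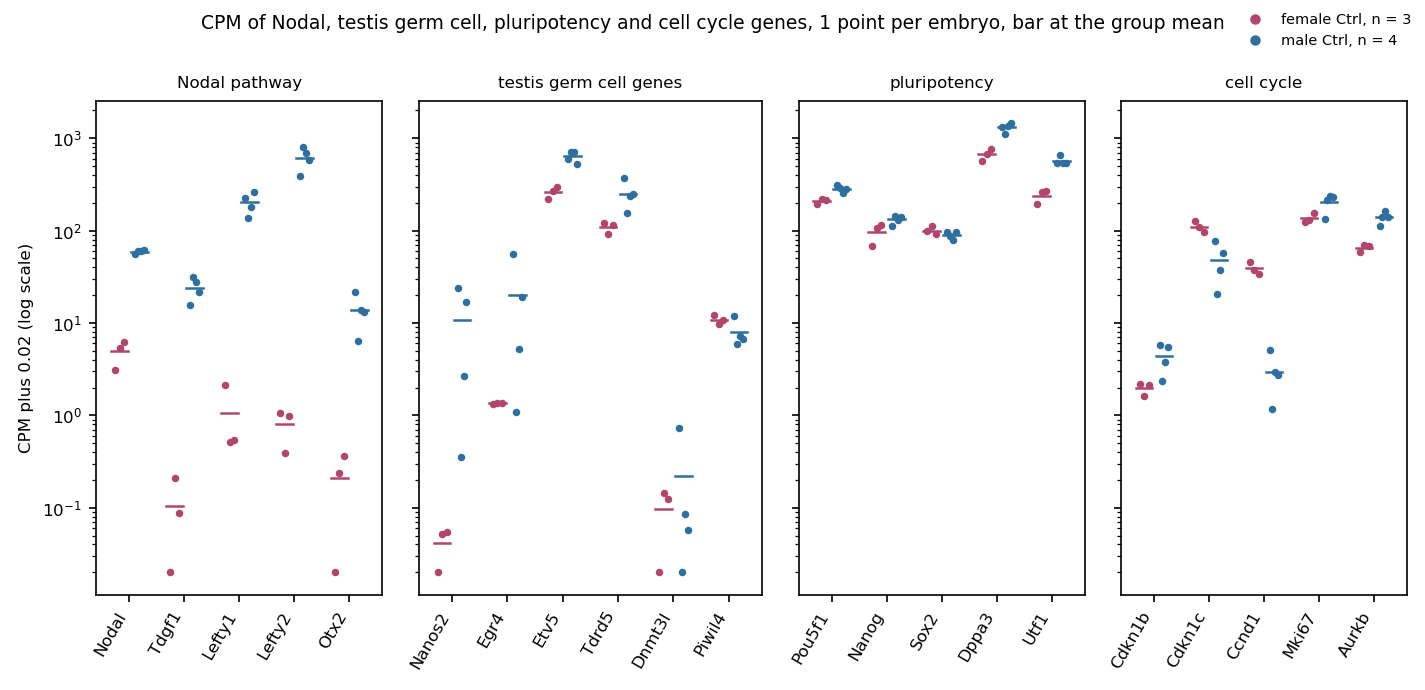
CPM plus 0.02 on a log axis for named genes of the Nodal pathway, the testis germ cell programme, pluripotency and the cell cycle; each point is 1 embryo (3 female, 4 male Ctrl) and each bar the group mean. Nodal pathway genes separate the sexes without overlap, and Nanos2 and Egr4 spread over more than 10-fold among the males. The sexes overlap for Egr4, Nanog, Sox2, Dnmt3l, Piwil4 and Mki67.

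Levels relative to female embryos cannot show whether the male germ cells were in mitotic arrest, so the groups are named here by sex alone. Genes of mitosis were more often higher in male embryos, 20 of 51 against 3 higher in female embryos (median -0.205). The male-higher count was 11 without female embryo 1 or without female embryo 3 and 13 without male embryo 3. It was also 13 on scaling by library size alone (median -0.1). Aurkb, a mitotic kinase, was at 113, 141, 162 and 140 CPM in males and 58.3, 69.3 and 68.1 CPM in females (log2 difference -1.09, SE 0.17, adjusted p = 0.000284). The spindle checkpoint gene Bub1b was at 296 to 376 CPM against 187 to 220 CPM. Mki67, the common marker of cycling cells, was at 134, 213, 234 and 234 CPM in males and 126, 129 and 156 CPM in females. Male embryo 1 lay within the female range, and the adjusted p was 0.0489, from 0.00661 to 0.151 when each Ctrl library was left out in turn: the call was lost on leaving out each of 6 libraries and kept only without male embryo 1. Of 45 DNA replication genes, 7 were higher in female and 6 in male embryos (median 0.0571), differences of at most 0.62 on the log2 scale among those called. The female-higher count was 13 without male embryo 2 and 4 without female embryo 2, female embryo 3 or male embryo 4. It was also 13 on scaling by library size alone.

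The regulators of G1 went in several directions. Cdkn1b, the inhibitor p27 known to rise in arresting male germ cells, was higher in males but low, at 5.78, 2.35, 3.81 and 5.45 CPM against 2.18, 1.59 and 2.13 CPM (log2 difference -1.15, SE 0.32, adjusted p = 0.0127, and 0.0564 without female embryo 2). Cdkn1c, the inhibitor p57, was higher in females, at 127, 109 and 96.1 CPM against 76.3, 20.3, 37.4 and 57.2 CPM (log2 difference 1.21, SE 0.32, adjusted p = 0.00993), a call lost with no filter on low counts. Cdkn2b, the inhibitor p15, was at 2.13 to 2.47 CPM in females and 2.52 to 5.37 CPM in males (adjusted p = 0.15), and Cdkn1a, the inhibitor p21, at 31.3 to 45.4 and 35.6 to 41.5 CPM (adjusted p = 0.864). Neither passed the test. Among the cyclins that drive G1, Ccnd1 was at 45.2, 37.6 and 34.1 CPM in females and 5.05, 1.16, 2.91 and 2.73 CPM in males (log2 difference 3.69, SE 0.36, adjusted p = 6.39e-06), while Ccnd2 and Ccnd3 did not pass; without female embryo 1, Ccnd2 did (adjusted p = 0.0437, higher in males). Their kinase genes Cdk4 and Cdk6 were higher in males, by 1.22 and 1.98 on the log2 scale. In the list of CDK inhibitors and G1 control, 10 of 31 were higher in male and 4 in female embryos (median -0.155). Scaling by library size alone gave 8 higher in male and 7 higher in female embryos (median -0.051). The male-higher count was 6 without female embryo 2, and the female-higher count was 2 without female embryo 1.

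Polycomb subunits differed in both directions. Of 32 Polycomb genes, 15 were higher in female and 6 in male embryos (median 0.309). Phf19, a Polycomb-like accessory subunit of the complex that methylates H3K27, was at 170, 170 and 153 CPM in females and 24.2, 30.4, 28.8 and 22.8 CPM in males (log2 difference 2.63, SE 0.12, adjusted p = 1.71e-08). The chromodomain subunit Cbx8 was at 20.9, 13.51 and 15.7 CPM against 1.11 to 2.71 CPM. Phc1 was higher in males, at 297, 200, 223 and 266 CPM against 82.5 to 87.0 CPM, whereas its paralog Phc2 was higher in females, at 73.7 to 96.6 against 29.6 to 40.5 CPM. Ezh2, the methyltransferase and the target of the study's knockout, was at 150, 145 and 166 CPM in females and 96.6, 144, 129 and 119 CPM in males. Its adjusted p was 0.0492, and it passed on leaving out only 1 of the 7 Ctrl libraries, male embryo 2. Among the enzymes that remove DNA methylation, Tet1 was higher in males, at 240 to 338 against 111 to 134 CPM, and Tet3 higher in females, at 2.97 to 3.10 against 0.66 to 1.52 CPM. Of 27 germline genes controlled by promoter methylation, 13 were higher in female and 1 in male embryos (median 0.403). The female-higher count was 7 without female embryo 1 and 6 without female embryo 2.

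Imprinted genes, of which only the maternal or the paternal copy is normally active, were higher in female embryos for 12 of 40 and higher in male embryos for 6 of 40 (median 0.147). The male-higher count was 3 without female embryo 2 or female embryo 3. Phlda2, known to restrain placental growth, was at 270, 324 and 234 CPM in females and at 0.818, 9.45, 1.22 and 0.757 CPM in males; its log2 difference of 6.56 (SE 0.76, adjusted p = 0.000119) was 8.20 without male embryo 2. Slc22a18 was at 26.1, 29.3 and 33.6 CPM against 0.204 to 1.81 CPM, and Plagl1 at 70.3, 69.5 and 39.6 against 2.16 to 7.18 CPM. Mest, expressed from the paternal copy, was higher in males, at 118, 43.2, 84.2 and 85.0 CPM against 12.1 to 16.2 CPM. Allele-specific expression was not measured.

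Among genes with housekeeping roles, isozymes of glycolysis differed in opposite directions. Ldha, a lactate dehydrogenase subunit, was at 172, 174 and 173 CPM in females and 26.7, 44.1, 46.0 and 32.2 CPM in males (log2 difference 2.21, SE 0.15, adjusted p = 4.1e-07). Ldhb, the other subunit, was higher in males, at 455 to 634 CPM against 238 to 335 CPM. The list as a whole had 8 of 27 genes higher in female and 10 higher in male embryos (median -0.285). Of 73 ribosomal protein genes, 1 was higher in female and 9 in male embryos, and the median of -0.0226 became 0.078 on scaling by library size; without female embryo 1 the counts were 3 and 2. The male-higher count was 5 without male embryo 2 or 4, and the female-higher count 5 without male embryo 4, 2 without male embryo 2 and 0 without female embryo 2, female embryo 3, male embryo 1 or male embryo 3. Among the genes named for their fold change, 2 rested on 1 library each. Rps3a3 was at 173 CPM in female embryo 1 and at 0.321 to 0.563 CPM in the other 6 embryos, and its adjusted p was 0.582 without that library. Eno1b was at 60.5 CPM in male embryo 3 and at 0.154 to 1.25 CPM in the other 6, and its log2 difference went from -5.61 to -1.60 without it; its adjusted p of 0.0306 rose to as much as 0.0962 on leaving out a female embryo. Their symbols mark them as copies of the Rps3a and Eno1 genes, and the handling of reads with several matches is not given in the sources used here, so both values are uncertain; its part in them was not tested.

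Cell adhesion genes were split evenly. Of 30 genes for cell adhesion and keratins, 10 were higher in each sex. The cadherin Cdh1 was at 248, 218, 211 and 177 CPM in males and 78.2, 82.7 and 94.2 CPM in females, whereas Cdh2 was at 51.0, 36.9 and 37.3 CPM in females and 11.7 to 15.9 CPM in males. The keratin Krt17 had no read in the female libraries and was at 16.4, 0.536, 2.28 and 8.37 CPM in males, at least 216-fold higher, and at least 117-fold higher without male embryo 1; it was not in the list. Pmaip1, the p53-responsive cell death gene Noxa, gave the largest difference among 33 apoptosis genes, at 276, 90.4, 174 and 224 CPM in males against 1.66 to 2.92 CPM in females (log2 difference -6.50, SE 0.42, adjusted p = 5.77e-07). In that list 7 were higher in male and 3 in female embryos (median -0.0767); without female embryo 3 the female-higher count was 1, and without male embryo 2 it was 5.

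**Figure D4:**
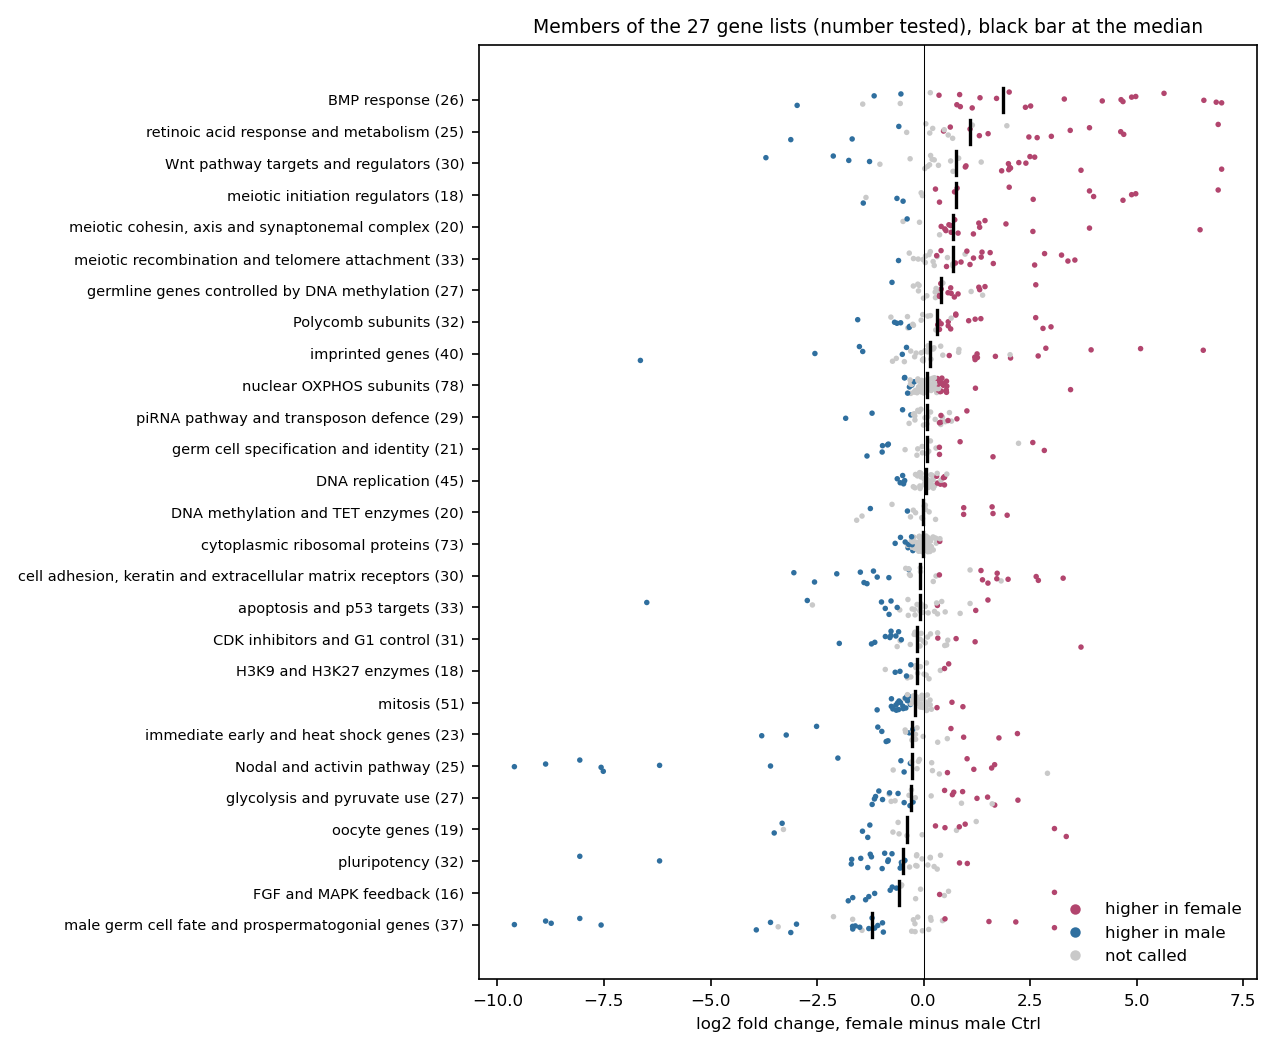
Log2 fold changes, female minus male Ctrl, of the tested members of the 27 gene lists, ordered by their median (black bar); colours mark members called higher in either sex. The BMP response list has the highest median, 1.86, and the list of male germ cell fate genes the lowest, -1.21. Members and lists were chosen with earlier results of these data known, so the order is a description only.

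The male embryos differed among themselves more than the female embryos did. Of 12168 autosomal genes with a mean of at least 1 CPM over all 12 libraries, 415 to 564 differed by more than 2-fold between 2 female embryos, 674 to 1891 between 2 male embryos and 2235 to 3020 between a female and a male embryo. The principal component with the largest share of the variance (69%) separated the sexes, and the next (15.4%) spread the males, with scores of 40.0, -52.2, -12.7 and 17.2 for embryos 1 to 4 against -3.48 to 11.99 for the females. Of 8791 genes with at least 10 CPM in a male library, 53 differed at least 8-fold between the highest and the lowest male. Among these, 19 were higher in both embryos 1 and 4 than in embryos 2 and 3, and 21 were lower in both. Nanos2 and Egr4, given above, belonged to this set, as did Krt17 and Mfap4, an extracellular matrix gene that was at 32.4, 0.949, 7.78 and 21.1 CPM in males and 1.69 to 2.24 CPM in females. Hesx1, a homeobox gene, varied less, at 92.7, 17.0, 39.4 and 93.2 CPM. Nodal itself lay between 55.3 and 61.9 CPM in all 4 males, and Tdgf1 and Lefty2 were lowest in embryo 1. The Sertoli marker sum was 68.3, 29.0, 25.9 and 22.6 CPM in male embryos 1 to 4, beside 23.8, 0.33, 2.65 and 16.7 CPM for Nanos2. Both were highest in embryo 1, and embryos 2 to 4 differed in order. The part of Sertoli cells in the spread among males was not tested. Embryonic age finer than the day was not stated, and its part in this spread was not tested.

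**Figure D5:**
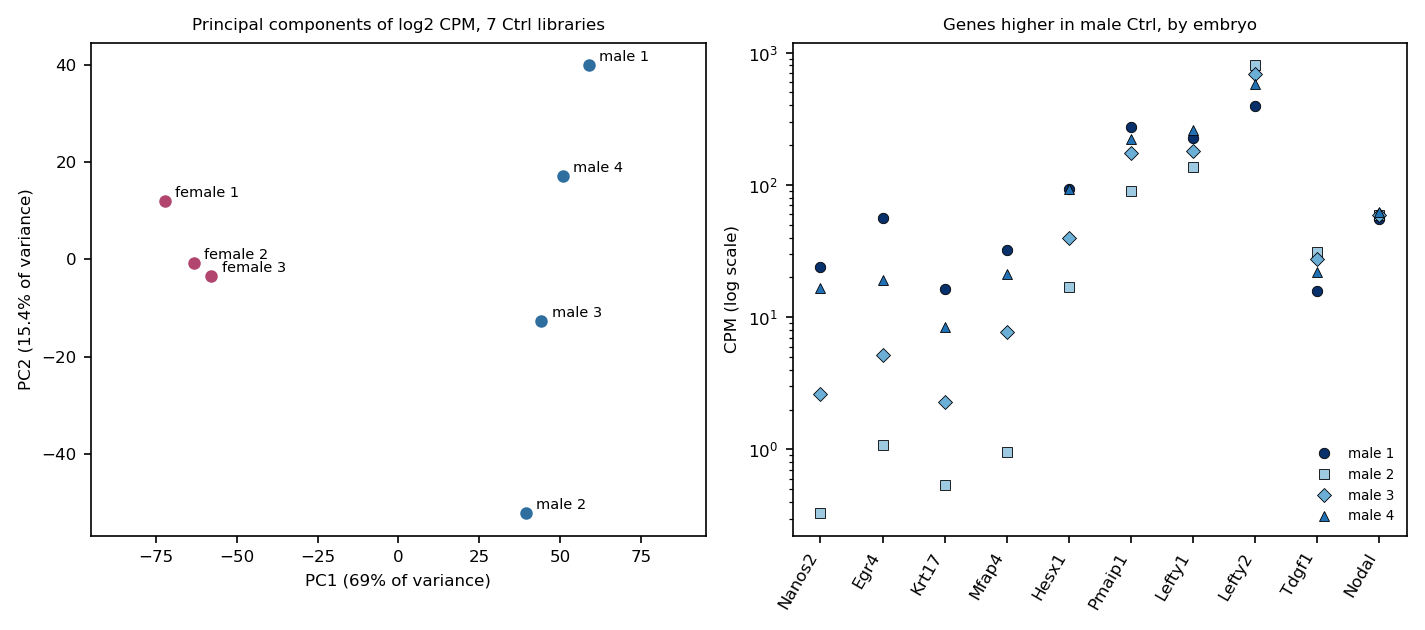
Left, scores of the 7 Ctrl libraries on the principal components of log2 CPM; right, CPM on a log axis of 10 genes higher in males, with 1 symbol per male embryo. Nanos2, Egr4, Krt17 and Mfap4 range over more than 10-fold with embryos 1 and 4 highest, and Nodal stays between 55.3 and 61.9 CPM.

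The CKO embryos gave a female to male comparison from other animals. There 6004 autosomal genes (39.2%) were called: 2931 (19.1%) were higher in female and 3073 (20.1%) higher in male embryos. Of the 3066 genes higher in female Ctrl embryos, 2162 were called in the same direction in CKO embryos, 70.5% of the Ctrl list and 73.8% of the CKO list; of the 3127 higher in male Ctrl embryos, 2296 were, 73.4% and 74.7%. In all, 2982 and 3059 had the same sign, and 2 were called in the opposite direction. The difference between the Ctrl and the CKO sex effects was tested directly: edgeR called 0 genes (0.0%), with 1286 (8.39%) at an unadjusted p under 0.05, and DESeq2 called 56. Stra8 was at 580 and 300.0 CPM in the female and 4.67 to 9.74 CPM in the male CKO embryos, and its sex effect differed by 0.83 on the log2 scale (edgeR adjusted p = 0.687). Lefty2 was at 0.322 and 0.481 CPM in female and 710.5 to 801 CPM in male CKO embryos. Nanos2 was at 0.644 and 0.421 CPM in female and 6.39, 8.98 and 11.0 CPM in male CKO embryos, a narrower range than in the male Ctrl embryos.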

How the data were processed

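Per the labels, germ cells of each E13.5 embryo were sorted separately, RNA was amplified with a SMART-seq V4 kit, which does not mark the strand, and 1 library was made per embryo. The authors deposited raw read counts per Ensembl gene. CASAVA 1.8.4, Trimmomatic 0.33, TopHat2 2.0.11, featureCounts, mm9 and NCBIM37 are listed in the submitters' processing notes; the handling of reads with several matches and the strand setting are not given in the sources used here.

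Gene names and chromosomes came from GENCODE on GRCm38, matched by gene ID. Rows with no match held 0.468% to 0.548% of the counts of a library. Of these rows 682 passed the filter; they, 671 X-linked, 8 Y-linked and 24 mitochondrial genes were in the fit but are not reported. All 12 libraries were fitted together with edgeR 4.0.16 in R 4.3.3 (filterByExpr with its minimum count of 10, TMM scaling, robust quasi-likelihood test, 1 coefficient for each of 4 groups, 8 residual degrees of freedom). The Benjamini-Hochberg adjustment ran over all 16708 genes, with calls at 0.05. CPM values use TMM-scaled library sizes and are not divided by gene length. A log2 difference is female minus male, and its SE is its size over the square root of the F statistic. Where a group had no read, the fold is a bound at 3 counts over the group. The test was also run on simulated data in which 200 genes were changed, far fewer than the 6193 called here. That run cannot show how often the test errs when so many genes differ. Promoter windows were found for 11304 of the 15323 genes.

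Named genes were the 12 with the largest fold change and the 6 with the smallest adjusted p in each direction (for the former, groups not overlapping and at least 5 CPM in the higher group), up to 4 called members of each list by adjusted p, and a fixed set of sex and cell cycle genes. Members and lists were chosen with earlier results of these data known. Also named, after their values were seen, were Cer1, Gata2, Msx2, Smad1, Smad2, Smad3, Smad4, Smad9, Foxh1, Bmp4, Trip13, Rarb, Aldh1a1, Axin2, Lin28a, Utf1, Furin, Pcsk6, Dusp6, Spry1, Fgfr2, Egr4, Khdc3, Nlrp5, Amh, Cst9, Foxl2, Wnt4, Irx3, Bmp2, Wfdc2, Tex12, Lhx1, Tet3, Ldhb, Mfap4, E2f6, L3mbtl2 and Bnc1. Some items are not reported here. Alternatives covered scaling, filters, the 7 Ctrl libraries alone, a replicate block, limma-voom (limma 3.58.1), DESeq2 1.42.0, a minimum fold and leaving out each library.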

Additional observations from a re-analysis of the deposited data

Results flagged for a closer look

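In 12 of 178 genes and 2 of 10 cell type marker sums, 1 of the 4 male Ctrl embryos lay apart from the other 3 by Dixon's criterion; chance alone gives such a gap in about 1 of 20 groups. Male embryo 2 stood apart in 5 genes. In it, Hand1 was at 0.743 CPM against 0 to 0.0379 CPM in the other males, Phlda2 at 9.45 CPM against 0.757 to 1.22 CPM and Msx2 at 6.81 CPM against 1.40 to 2.32 CPM; these 3 genes were higher in female embryos. Utf1 was at 657 CPM against 536 to 543 CPM in the other males, and Pkm, a pyruvate kinase, at 2690 CPM against 2210 to 2290 CPM. The germ cell marker sum of male embryo 2 was 5630 CPM against 6250 to 6320 CPM.

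In male embryo 1, Foxl2 was at 0.146 CPM against 0 in the other males, Dnmt3l was at 0.701 CPM against 0 to 0.0662 CPM, Cdkn2b at 5.37 CPM against 2.51 to 2.89 CPM and Zfp36 at 12.4 CPM against 8.90 to 9.20 CPM. The Sertoli marker sum of that embryo was 68.3 CPM against 22.6 to 29.0 CPM. Eno1b was at 60.5 CPM in male embryo 3 against 0.743 to 1.25 CPM in the other males. In male embryo 4, Pdpn was at 33.8 CPM against 27.1 to 27.7 CPM and Cdh2 at 11.7 CPM against 15.2 to 15.9 CPM.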

How the results depend on the processing

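The counts called in each direction stayed within 1.5 times under other scalings, filters, tools and left-out libraries, with 1 exception: requiring a log2 difference above 1 left 754 higher in female and 461 higher in male embryos. Leaving out each Ctrl library in turn gave 2372 to 3177 higher in female and 2464 to 3176 higher in male embryos. Whether replicate numbers pair the embryos was not settled. Correlations of the deviations of same-numbered female and male embryos were 0.171, 0.128 and 0.0222. The values of 0.171 and 0.128 were the highest of any female and male pair and above the set threshold of 0.1. Female embryo 3 correlated best with male embryo 4 (0.079). Replicate numbers are those of the sample titles, and the names of the count columns number the female embryos otherwise. With the replicate block the counts were 2862 and 2930, and the difference of the sex effect between Ctrl and CKO again gave 0 genes. That difference gave 56 genes with DESeq2 and 0 to 3 when each library was left out. Among 178 named genes, signs turned only for 4 that did not pass the test: Ccnd3 (0.028 with library size only, 0.015 with limma-voom, -0.211 to 0.181 with libraries left out), Cdkn1a (-0.061 to 0.197), Dnmt3l (-2.02 to 0.956) and Ddx4 (-0.039 to 0.151), all on the log2 scale with libraries left out; the cause was not tested. Genes with few reads in a group have folds limited by depth: 3 reads over the group equal 0.032 CPM in female and 0.0261 CPM in male embryos. Whether the embryos came from separate litters is not stated, so p-values measure the spread between these embryos.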

Other observations

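Further gene groups were compared between female and male Ctrl embryos. Of all autosomal genes tested, 20.0% were higher in female and 20.4% higher in male embryos. Where 2 counts are given together, the female-higher count comes first. Of 21 genes of germ cell specification and identity, 6 were higher in female and 5 in male embryos (median log2 difference 0.076), and Ddx4, a germ cell RNA helicase, was at 1187, 1143 and 1085 CPM in females and 812 to 1265 CPM in males (edgeR adjusted p = 0.673). Of 29 piRNA pathway genes, 6 (20.7%) and 4 (13.8%) were called. The female-higher count was 3 without female embryo 1 or 2 and 10 without male embryo 1. The male-higher count was 2 without female embryo 1 or 3. Of 78 nuclear subunits of oxidative phosphorylation, 18 (23.1%) were higher in female and 6 (7.69%) in male embryos. The female-higher count was 11 without female embryo 2 or 3 and 29 on scaling by library size alone. Of 20 DNA methylation and TET enzymes, 5 and 2 were called, and of 18 enzymes of H3K9 and H3K27 methylation, 2 and 4, with 7 male-higher without male embryo 2. Of 23 immediate early and heat shock genes, 4 were higher in female and 9 in male embryos.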
